A study of Mus musculus with 8 samples.

Results

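Spi1, Irf1, Irf5, Irf8, Cebpa, Cebpb, Cebpd, Runx1 and Maf encode transcription factors that direct the formation or activation of myeloid cells, the lineage of monocytes, macrophages, dendritic cells and granulocytes. These 9 genes were listed by symbol, and each matched 1 of the 22063 genes in the deposited table. All 9 had enough counts to be among the 13431 genes tested. Their levels were compared in aortas of male C57BL/6J mice on chow, with 4 libraries per treatment. The vehicle mice received saline by gavage, and the others colchicine, a microtubule poison used against inflammation, at 200 µg per kg per day. Mice of both groups were 3 weeks old at the start and drank beta-aminopropionitrile (BAPN), an inhibitor of lysyl oxidase that brings about aortic dissection, at 1 g per kg per day for 3 weeks. Healthy aortas without BAPN were not analysed here, so each level is set only against the other BAPN-treated group. The labels do not say whether a library came from 1 mouse or from pooled mice, so p-values measure the spread between these libraries.

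PU.1, the ETS factor encoded by Spi1, binds together with C/EBP, IRF and RUNX factors at the enhancers of myeloid genes. RUNX1 is needed for the first blood stem cells, C/EBP alpha for the step to granulocytes and monocytes, and IRF8 for monocytes and dendritic cells. IRF1, IRF5, C/EBP beta and C/EBP delta are better known for switching on inflammatory genes in cells already formed, and c-Maf for the restrained state of macrophages that reside in tissues. Several of the genes are also used outside blood, since C/EBP factors drive fat cell formation and IRF1 is made by most cells exposed to interferon.

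Library totals were 15427898 to 18460006 estimated counts. Levels are given as CPM or TPM. CPM are counts per 1000000 of the library total multiplied by its TMM factor. This factor was 0.7624 for vehicle 1 and 0.987 to 1.084 for the other libraries, so CPM need not sum to 1000000. TPM, the authors' transcript abundances, sum to 1000000, take transcript length into account and have no TMM factor. Differences are colchicine minus vehicle on the log2 scale with a standard error, and adjusted p refers to edgeR's quasi-likelihood test with Benjamini-Hochberg adjustment over the 13431 genes. The threshold was 0.05. Smooth muscle markers were present in every library, with a sum over 10 genes of 7339 to 25000 CPM in vehicle and 27680 to 36800 CPM in colchicine libraries. Vehicle 1 and vehicle 4 stood apart by their haemoglobin and other erythroid transcripts, which summed to 197600 and 59540 CPM over 6 markers against 389.7 to 3100 CPM in the other 6 libraries. Several results are therefore also given without these 2 libraries. The number of raised genes over the whole table, 2342, was 1512 without vehicle 1, 928 without colchicine 1, 898 without colchicine 2 and 1237 without colchicine 4, and that of lowered genes, 2277, was 1449 without colchicine 1 and 1309 without colchicine 2.

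Of the 9 genes, 8 were lower in the colchicine aortas past the threshold, and Maf did not pass. Lowered genes made up 17% and raised genes 17.4% of all genes tested. Runx1, Spi1, Irf8, Cebpb and Irf5 fell the most, by 6.89-fold to 10.9-fold, while Cebpa fell 3.57-fold, Cebpd 1.71-fold and Irf1 1.63-fold. In CPM every colchicine library was below every vehicle library for all 9 genes. This was so for 17.9% of the genes tested, while 21.1% had every colchicine library above every vehicle library. For Irf1, Cebpa and Maf the separation rested on the TMM factor of vehicle 1 (0.7624), and for Maf also on that of colchicine 4 (1.082). Vehicle 1 held 446, 417 and 700 counts of these genes in a total of 17888646. From smaller totals, colchicine 4 held 479 counts of Irf1 and 903 of Maf, and colchicine 1 held 423 of Cebpa. For Maf, vehicle 2 held 930 counts in a total of 18460006, while the total of colchicine 4 was 16856758. The same 8 genes passed without vehicle 1 and vehicle 4. In whole-tissue RNA fewer cells of a type and less RNA per cell cannot be told apart.

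**Figure D1:**
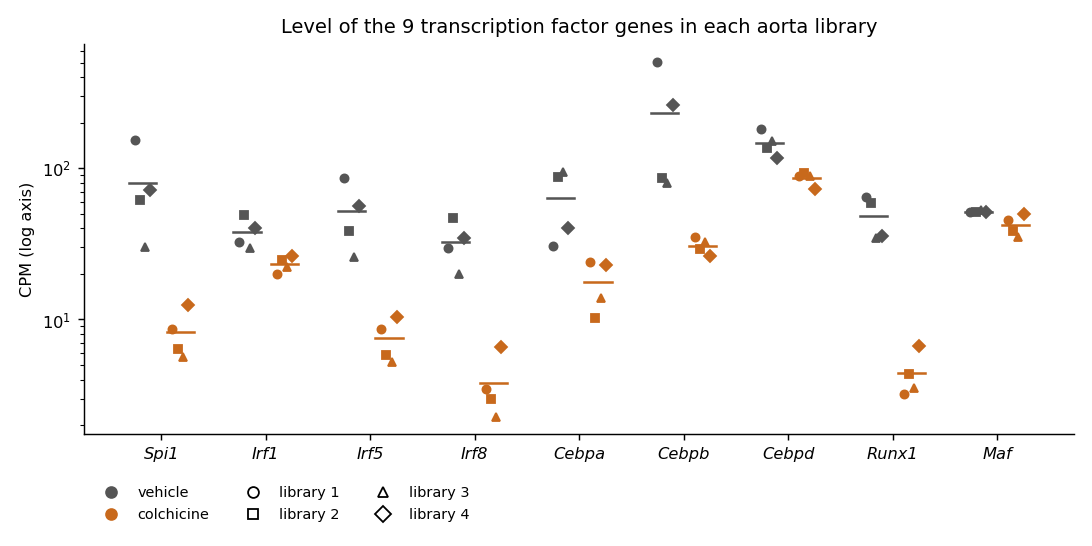
CPM (log axis) of each gene in each library, with vehicle in grey, colchicine in orange, 1 symbol per library number and a bar at the group mean. The colchicine points lie below the vehicle points for every gene, with the largest ratio of means for Runx1 (4.45 against 48.4 CPM) and the smallest for Maf (42.3 against 51.8 CPM).

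Spi1 (ENSMUSG00000002111, GRCm38 chr2:91082390-91115756, plus strand) was at 154, 61.2, 29.95 and 71.7 CPM in vehicle 1 to 4 and at 8.67, 6.37, 5.67 and 12.6 CPM in colchicine 1 to 4. Vehicle 1 was the highest of the 8 libraries and colchicine 3 the lowest, and the groups did not overlap. The difference was -3.25 ± 0.50 (adjusted p = 0.00479). Without vehicle 1 and vehicle 4 it was -2.45 ± 0.37 (adjusted p = 0.00703).

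Runx1 (ENSMUSG00000022952, chr16:92601466-92826149, minus strand), the DNA-binding subunit of core binding factor, showed the largest fall of the 9 genes and the smallest adjusted p. It was at 64.8, 58.9, 34.4 and 35.55 CPM in vehicle 1 to 4 and at 3.23, 4.36, 3.50 and 6.69 CPM in colchicine 1 to 4. The difference of -3.44 ± 0.32 (adjusted p = 0.00295) hardly moved without vehicle 1 and vehicle 4, at -3.38 ± 0.32 (adjusted p = 0.00407). Its level within the vehicle group did not follow the erythroid transcripts, since vehicle 2 was near vehicle 1 and vehicle 4 near vehicle 3.

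Irf8 (ENSMUSG00000041515, chr8:120736358-120756694, plus strand) was at 29.6, 46.6, 20.0 and 34.3 CPM in vehicle and at 3.46, 2.99, 2.28 and 6.58 CPM in colchicine libraries. Here vehicle 2, outside the haemoglobin-rich pair, was the highest, and the difference was -3.09 ± 0.38 (adjusted p = 0.00388). Irf5 (ENSMUSG00000029771, chr6:29526625-29541871, plus strand) was at 85.8, 38.7, 25.95 and 56.7 CPM in vehicle and at 8.61, 5.80, 5.22 and 10.4 CPM in colchicine libraries. Its vehicle libraries fell in the same order as for Spi1, with vehicle 1 first, then vehicle 4, vehicle 2 and vehicle 3. The difference was -2.79 ± 0.39 (adjusted p = 0.00432), and -2.10 ± 0.29 without vehicle 1 and vehicle 4 (adjusted p = 0.00638). Irf5 overlaps Tnpo3 on the opposite strand and its estimated counts were not whole in 7 of 8 libraries, so its level is uncertain to the extent that reads were split between the genes.

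Irf1 (ENSMUSG00000018899, chr11:53770014-53778374, plus strand), an early target of interferon gamma signalling, had a smaller fold change than the other IRF genes of the 9. It was at 32.8, 49.3, 29.9 and 40.3 CPM in vehicle 1 to 4 and at 20.1, 24.6, 22.3 and 26.3 CPM in colchicine 1 to 4. Vehicle 2 was again the highest, and the groups did not overlap in CPM. The difference was -0.71 ± 0.18 (adjusted p = 0.0176), and Irf1 did not pass without colchicine 1 (-0.66, adjusted p = 0.0563) or without scaling factors (-0.61, adjusted p = 0.0621). In TPM it was at 15.4, 49.0, 32.3 and 34.0 in vehicle and at 21.9, 26.0, 23.1 and 31.4 in colchicine libraries, so the groups overlapped, and limma on log2(TPM + 1) gave -0.25 ± 0.32 (adjusted p = 0.585).

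The bases before 1 transcription start each of Irf1 and Irf8 are shown because both genes fell and these windows hold the letters TTCNNNGAA. This is the spaced palindrome that STAT factors bind. Each gene had 2 windows, and the second, not shown, held no such match. Sequences are the 250 bases before the start from RefSeq on GRCm38.p6, plus strand, 5′ to 3′, with that motif in capitals. They lie at chr11:53769764-53770013 for Irf1 and at chr8:120736108-120736357 for Irf8.
Irf1: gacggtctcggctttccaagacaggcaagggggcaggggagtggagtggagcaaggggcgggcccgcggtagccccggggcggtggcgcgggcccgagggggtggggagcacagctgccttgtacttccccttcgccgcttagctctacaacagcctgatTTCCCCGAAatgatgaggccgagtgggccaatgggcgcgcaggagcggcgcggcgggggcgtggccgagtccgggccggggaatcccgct
Irf8: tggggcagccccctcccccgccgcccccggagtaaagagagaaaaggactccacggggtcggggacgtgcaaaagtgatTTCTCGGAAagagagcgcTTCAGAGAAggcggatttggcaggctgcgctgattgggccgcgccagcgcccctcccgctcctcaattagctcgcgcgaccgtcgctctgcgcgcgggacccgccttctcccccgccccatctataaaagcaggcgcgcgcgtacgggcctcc
The match in Irf1 lies at -90 to -82 from the start and those in Irf8 at -171 to -163 and -153 to -145. RefSeq windows of 300 bases around the start were given for 6 of the 9 genes, with 9 windows in all, and 2 of these 9 held TTCNNNGAA, against 8.3% of 32851 windows of all genes. On either strand, and with overlaps between motifs allowed, the ETS letters GAGGAA were in 1 of the 9 (28.3% of all windows), the RUNX letters TGTGGT in 1 (16.8%) and the MAF letters TGCTGA in 1 (19.5%). The C/EBP letters TTGCNNAA (10.8% of all windows) and the IRF motif, 2 copies of GAAA spaced by 2 bases (3.44%), were in 0 of the 9. These matches describe letters in the windows only.

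The 3 C/EBP genes, which share a leucine zipper and can pair with each other, did not rank the vehicle libraries alike. Cebpb (ENSMUSG00000056501, chr2:167688915-167690418, plus strand) was at 506, 86.2, 79.8 and 262 CPM in vehicle 1 to 4 and at 35.0, 29.4, 32.4 and 26.2 CPM in colchicine 1 to 4. Vehicle 1 and vehicle 4 were far above the other 2 vehicle libraries, with a 6.35-fold range within the vehicle group against 1.34-fold within the colchicine group. The difference was -2.92 ± 0.58 (adjusted p = 0.00825), -2.31 ± 0.41 without vehicle 1 (adjusted p = 0.00996) and -1.43 ± 0.13 without vehicle 1 and vehicle 4 (adjusted p = 0.00395). Neutrophil markers were high in the same vehicle libraries, and 3 of 4 tested markers fell, although 0 of 4 did so with limma-voom. Summed over these 4 markers, vehicle 1 to 4 held 2555, 16.6, 11.2 and 620 CPM and the colchicine libraries 2.95 to 4.59 CPM. The other 6 of the 10 listed neutrophil markers did not pass the count filter used with edgeR, though none was at 0 in all colchicine libraries. On log2(TPM + 1), which had its own filter, 9 of the 10 were tested and 4 fell. The part of neutrophil RNA in the level of Cebpb was not tested. Cebpb overlaps Tmem189 on the opposite strand, and the use of strand in the counting is not given in the sources used here.

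Cebpa (ENSMUSG00000034957, chr7:35119293-35121928, plus strand) had the reverse order within the vehicle group. It was at 30.6, 87.4, 94.9 and 40.0 CPM in vehicle 1 to 4 and at 24.0, 10.2, 13.9 and 22.9 CPM in colchicine 1 to 4. The lowest vehicle libraries were vehicle 1 and vehicle 4, where Cebpb was highest, and they stood close above the highest colchicine libraries. The difference was -1.83 ± 0.42 (adjusted p = 0.0129), and -2.36 ± 0.32 without vehicle 1 and vehicle 4 (adjusted p = 0.00594). On log2(TPM + 1) it was -1.29 ± 0.56 and did not pass (adjusted p = 0.11). Fat cells, which surround the aorta, also make C/EBP alpha. White adipocyte markers fell in 2 of 6 tested cases, in 5 of 7 without vehicle 1 and vehicle 4, and in 1 of 6 without scaling factors or on log2(TPM + 1). Over the 6 genes their mean log2 CPM was 3.00, 5.42, 6.22 and 5.58 in vehicle 1 to 4 against 2.86 to 4.57 in colchicine libraries. As a sum they reached 504 to 1210 CPM in vehicle and 136 to 360 CPM in colchicine libraries. Their part in the level of Cebpa was not tested.

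**Figure D2:**
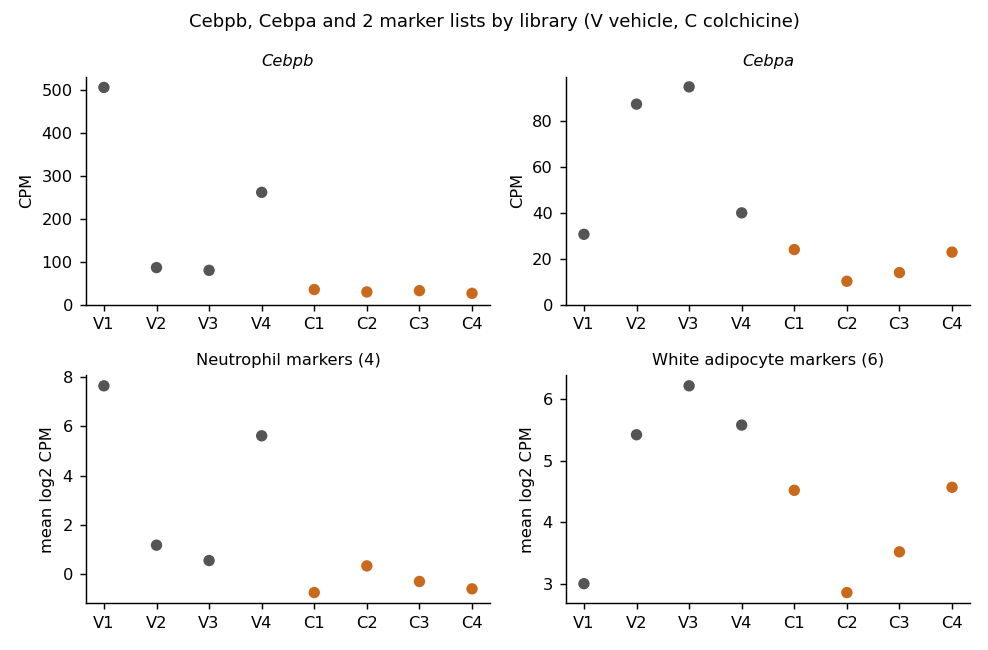
CPM of Cebpb and Cebpa (top) and mean log2 CPM of 4 neutrophil and 6 white adipocyte markers (bottom) in vehicle 1 to 4 (V, grey) and colchicine 1 to 4 (C, orange), 1 point per library. Cebpb and the neutrophil markers are highest in V1 and V4, while Cebpa is highest in V2 and V3, at 87.4 and 94.9 CPM.

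As a ratio of TPM, Cebpb stood above Cebpa 28.6, 1.70, 1.46 and 11.2 times in vehicle 1 to 4 and 2.51, 5.05, 4.03 and 1.98 times in colchicine 1 to 4. The ratio was highest in the haemoglobin-rich vehicle 1 and vehicle 4, and the colchicine libraries lay between these and the other vehicle libraries. Cebpd (ENSMUSG00000071637, chr16:15887286-15891031, plus strand), an acute phase factor, was at 183, 136, 152 and 117 CPM in vehicle and at 88.6, 93.4, 88.3 and 72.9 CPM in colchicine libraries. It spanned 1.56-fold within the vehicle and 1.28-fold within the colchicine group, and the difference was -0.78 ± 0.17 (adjusted p = 0.0102). On log2(TPM + 1) it was -0.34 ± 0.23 and did not pass (adjusted p = 0.293). Cebpd overlaps Spidr on the opposite strand, and its estimated counts were not whole in any of the 8 libraries, which leaves the same uncertainty.

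Maf (ENSMUSG00000055435, chr8:115682942-115707794, minus strand), which encodes c-Maf, was at 51.4, 51.1, 53.1 and 51.4 CPM in vehicle 1 to 4 and at 45.7, 38.8, 35.3 and 49.5 CPM in colchicine 1 to 4. The 4 vehicle values were within 1.04-fold of each other while those of Spi1 spanned 5.15-fold. The difference was -0.29 ± 0.13 and did not pass (adjusted p = 0.109). In TPM the vehicle libraries spread from 9.43 to 24.6 and enclosed the colchicine libraries, at 15.3 to 24.3, and the difference on log2(TPM + 1) had the opposite sign, at 0.15 ± 0.31 (adjusted p = 0.736). The close agreement of the vehicle libraries was therefore seen in TMM-scaled CPM and not in TPM, which has no such factor. Before scaling, vehicle 1 held 700 counts of Maf in a total of 17888646, and vehicle 3 held 1009 in 17540994. Their TMM factors were 0.7624 and 1.084.

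**Figure D3:**
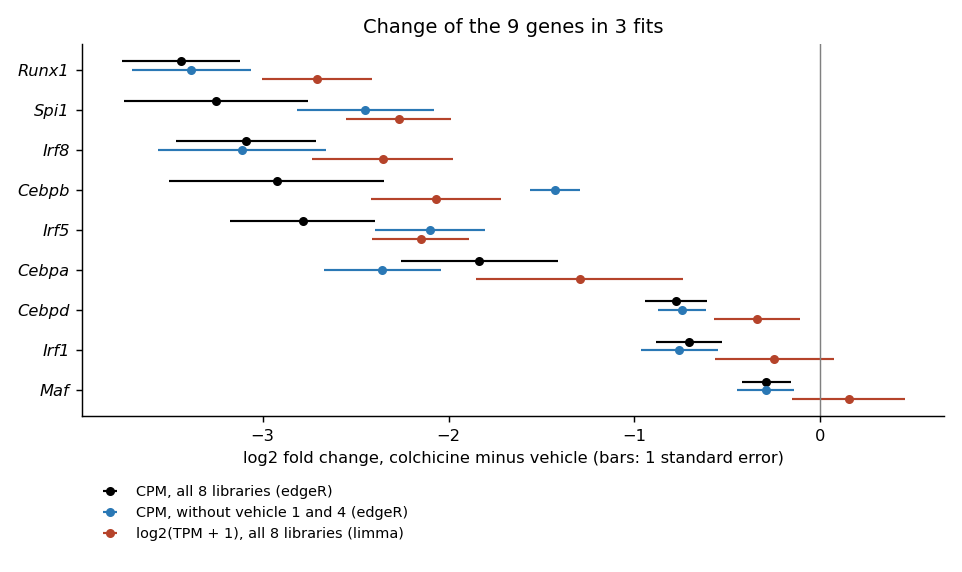
Log2 fold change of each gene, colchicine minus vehicle, with 1 standard error, from edgeR on all 8 libraries (black), edgeR without vehicle 1 and vehicle 4 (blue) and limma on log2(TPM + 1) (red). Runx1, Spi1, Irf8, Cebpb and Irf5 lie at or below -1.43 in all 3 fits, and Maf is on both sides of 0, at -0.29 and 0.15.

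Values in TPM gave a smaller fall for each of the 8 lowered genes, and the median over all genes tested was 0.35 there against -0.03 with CPM. Relative to that median the TPM differences were -3.06 for Runx1, -2.70 for Irf8, -2.62 for Spi1, -2.498 for Irf5, -2.42 for Cebpb and -1.64 for Cebpa. They were -0.69 for Cebpd, -0.60 for Irf1 and -0.20 for Maf. In the TPM fit 5 of the 9 genes passed (Spi1, Irf5, Irf8, Cebpb and Runx1). Of all genes, 2347 were raised and 863 lowered there, against 2342 and 2277 with CPM. The groups of the same 5 genes did not overlap in TPM, but the share of all genes without overlap was counted in CPM only.

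The order of levels per transcript length also changed. In vehicle libraries Cebpb came first at 219 ± 115 TPM (SD, n = 4), followed by Cebpd (67.5 ± 20.1), Spi1 (67.3 ± 17.7), Cebpa (47.7 ± 33.7), Irf5 (38.7 ± 7.34) and Irf1 (32.7 ± 13.7). Irf8 (20.4 ± 10.1), Runx1 (19.9 ± 6.64) and Maf (18.4 ± 6.80) came last. Cebpb stood above Cebpd by more than the larger SD of the pair, and no neighbours further down did. In colchicine libraries the order was Cebpd (51.5 ± 4.48), Cebpb (46.1 ± 5.74), Irf1 (25.6 ± 4.21), Maf (19.6 ± 3.94), Cebpa (15.5 ± 6.50), Spi1 (13.3 ± 4.76), Irf5 (8.09 ± 2.51), Irf8 (3.07 ± 1.64) and Runx1 (2.20 ± 0.97). Here the steps from Cebpb to Irf1, Irf1 to Maf, Spi1 to Irf5 and Irf5 to Irf8 exceeded the larger SD of the pair, and the others did not. Maf moved from the last to the fourth place and Spi1 from the third to the sixth, with Spi1 at 8.99, 3.33, 1.77 and 3.90 times the TPM of Maf in vehicle 1 to 4 and at 0.509 to 0.840 times in colchicine libraries.

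Leukocyte markers (Ptprc, Laptm5, Cd53, Coro1a, Lcp1, Tyrobp, Fcer1g, Itgb2 and Cd52) fell in 9 of 9 cases. Some of them, such as Tyrobp and Fcer1g, are not made by every type of leukocyte. The median difference was -3.57, which was -2.45 without vehicle 1 and vehicle 4. Summed over the 9, vehicle 1 to 4 held 2952, 1235, 555 and 1566 CPM and the colchicine libraries 125 to 243 CPM, and none was at 0. Each gene was therefore also expressed as its log2 CPM minus the mean log2 CPM of these 9 markers. Spi1 lay in a narrow range on this scale, at -0.87, -0.835, -0.78 and -1.10 in vehicle 1 to 4 and at -0.78, -0.69, -0.97 and -0.745 in colchicine 1 to 4. The groups overlapped for Spi1, Irf5, Irf8, Runx1, Cebpa and Cebpb, with differences of 0.10, 0.48, 0.06, -0.25, 1.41 and 0.66. They did not overlap for Irf1, Cebpd and Maf, which were higher relative to the markers in colchicine libraries by 2.48, 2.40 and 2.86. The marker mean itself was 5.69 to 8.14 in vehicle and 3.39 to 4.41 in colchicine libraries. Any gene that fell less than the markers therefore stands higher on this scale. The share of all genes without overlap on this scale was not counted. These relative levels are a description with no test, and 3 of the 9 markers (Ptprc, Tyrobp and Itgb2) are also on the list of PU.1 targets.

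**Figure D4:**
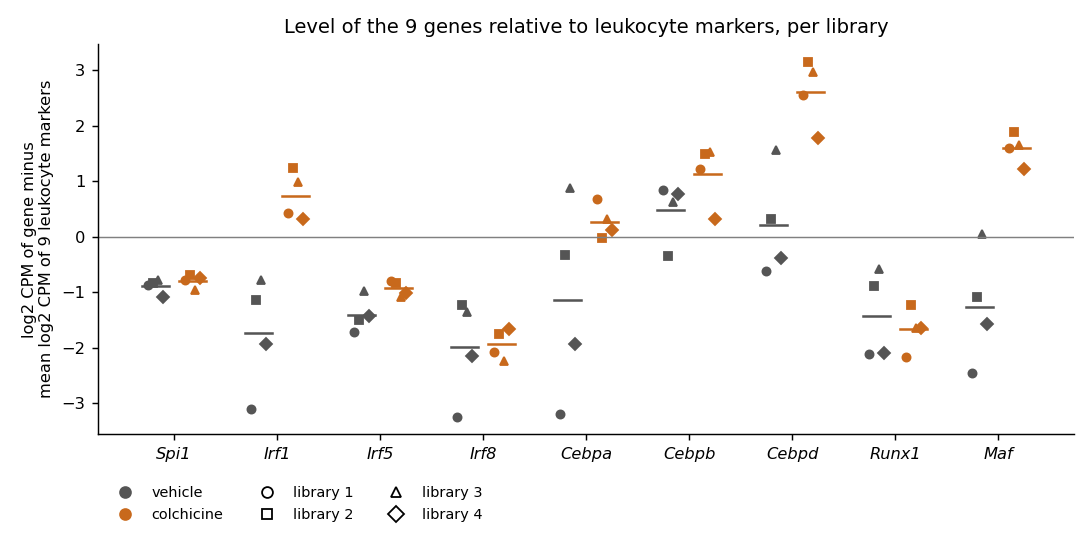
Log2 CPM of each gene minus the mean log2 CPM of 9 leukocyte markers in every library, with symbols as in the plot of CPM and a bar at the group mean. Spi1 lies between -1.10 and -0.69 in all 8 libraries, while Irf1, Cebpd and Maf are higher in every colchicine than in every vehicle library. A gene that fell less than the markers moves up on this scale.

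Genes known as targets of these factors were read from lists written from textbook knowledge. Several genes stand on more than 1 list, so the counts of targets and of cell markers are not separate observations. Over all tested genes the median difference was -0.03, with 17% lowered and 17.4% raised. Lowered genes numbered 1839 of 13431 with limma-voom, 2787 of 13746 without vehicle 1 and vehicle 4, and 863 of 13152 on log2(TPM + 1). Of 20 PU.1 targets 18 fell and 0 rose, with a median of -2.98, which was -2.03 without vehicle 1 and vehicle 4. Csf3r, the receptor for granulocyte colony-stimulating factor, went from 146 to 1.71 CPM (-6.41 ± 1.33, adjusted p = 0.00926), a call that limma-voom did not make (adjusted p = 0.11). It is also on the lists of C/EBP targets, receptors and neutrophil markers. The Fc receptor Fcgr1 stood at -3.996 ± 0.549 and the pore-forming Mpeg1 of macrophages at -3.78 ± 0.64. Of 4 tested RUNX1 targets 4 fell, with a median of -3.27, or -1.55 without vehicle 1 and vehicle 4. These were the platelet integrin Itga2b (-4.38), the leukocyte integrin Itgal (-3.61), the platelet chemokine Pf4 (-2.93) and the macrophage growth factor receptor Csf1r (-1.04). Itga2b and Pf4 are also among the platelet markers. Under limma-voom Itga2b missed the threshold (adjusted p = 0.0587), as did Csf1r on log2(TPM + 1) (adjusted p = 0.463).

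Of 15 tested IRF targets 10 fell and 0 rose (median -1.37), led by Il6, Cxcl10 and Nos2. Nos2, the inducible nitric oxide synthase, went from 6.71 to 0.280 CPM (-4.54 ± 0.34, adjusted p = 0.000939), and the chemokine Cxcl10 from 20.5 to 0.430 CPM (-5.54 ± 0.64, adjusted p = 0.00388). For the cytokine gene Il6 the 4 vehicle libraries together held 2558 counts and the 4 colchicine libraries 4, and under limma-voom it missed the threshold (adjusted p = 0.0776). Targets of C/EBP factors in myeloid cells fell in 7 of 8 tested cases (median -5.66), led by Il6 and the calprotectin genes S100a9 and S100a8. Together with Csf3r, S100a9 and S100a8 are also the 3 neutrophil markers that fell with edgeR. Counts summed over the vehicle group were 23744 for S100a9 and 13002 for S100a8, and over the colchicine group 50 and 30, and under limma-voom neither passed (adjusted p = 0.321 and 0.352). Without vehicle 1 and vehicle 4 the median over the 8 targets was -2.06 with 6 of 8 lowered, and with limma-voom 3 of 8 were lowered. Of 6 tested C/EBP targets of fat cells 2 fell and 0 rose (median -1.39), which were the fatty acid carrier Fabp4 (-1.88 ± 0.40, adjusted p = 0.0101) and the adipocyte regulator Pparg (-1.46 ± 0.46, adjusted p = 0.037). Without vehicle 1 and vehicle 4 the count was 3 of 7. Pparg did not pass without vehicle 1 and vehicle 4 (adjusted p = 0.0557) or on log2(TPM + 1) (adjusted p = 0.143). Fabp4 and Pparg are also the 2 white adipocyte markers that fell with edgeR on all 8 libraries.

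Targets of c-Maf in resident macrophages did not move in one direction. Of 10 tested genes 3 rose and 1 fell, with a median of 0.22. Without vehicle 1 and vehicle 4 there were 4 raised and 3 lowered genes, and with limma-voom or on log2(TPM + 1) 3 raised and 0 lowered. The haemoglobin scavenger receptor Cd163 went from 8.90 to 40.5 CPM (2.18 ± 0.40, adjusted p = 0.00668) and Timd4, a receptor for dying cells, from 0.872 to 3.04 CPM (1.78 ± 0.43, adjusted p = 0.0153). The complement subunit C1qb fell by 1.56 ± 0.47 (adjusted p = 0.033), but missed the threshold under limma-voom (adjusted p = 0.0611). Cd163 and C1qb are also among the macrophage markers. These as a whole fell in 5 and rose in 2 of 10 cases, or in 3 and 2 on log2(TPM + 1) and in 7 and 2 without vehicle 1 and vehicle 4, with a summed level of 865 to 1660 CPM in vehicle and 384 to 664 CPM in colchicine libraries. Their part in the levels of these genes was not tested.

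Upstream of the factors, 11 of 14 receptors and STATs fell and 0 rose (median -1.11), although 4 of 14 did so on log2(TPM + 1). Csf2rb, the shared chain of the receptors for granulocyte-macrophage colony-stimulating factor and interleukin-3, stood at -4.84 ± 0.70 and its partner Csf2ra at -2.99 ± 0.47. Of the 9 ligands only 3 reached the counts needed for testing with edgeR, and 1 of them, Il6, fell. With limma-voom 0 of the 3 fell. On log2(TPM + 1), which had its own filter, 6 ligands were tested and 2 fell.

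Relatives of the 9 genes, with some partners and genes of like name, were read family by family. Irf7, the IRF that amplifies type I interferon, was at 42.3, 113, 31.4 and 83.7 CPM in vehicle 1 to 4 and at 6.23, 5.57, 2.94 and 8.72 CPM in colchicine 1 to 4. It fell by 3.53 ± 0.48 (adjusted p = 0.00413). Irf9, a subunit of the interferon response complex, fell by 1.31 ± 0.25 (adjusted p = 0.00748), but did not pass on log2(TPM + 1) (adjusted p = 0.121). Irf2, Irf3 and Irf4 did not pass.

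In the RUNX family Runx3, a factor of T cells and dendritic cells, went from 650 vehicle to 43 colchicine counts in all (-4.04 ± 0.58, adjusted p = 0.00434), and the bone factor Runx2 fell by 2.33 ± 0.40 (adjusted p = 0.00596). The partner subunit Cbfb fell by 0.69 ± 0.16 (adjusted p = 0.0117), and not past the threshold on log2(TPM + 1) (adjusted p = 0.416). The corepressor Runx1t1 rose by 0.89 ± 0.29 (adjusted p = 0.039), but not without vehicle 1 and vehicle 4 (adjusted p = 0.114). Thus 3 of the 4 listed genes fell and 1 rose, but Cbfb and Runx1t1 are not RUNX factors themselves.

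The small Maf factors Maff, Mafg and Mafk, relatives of c-Maf, did not pass. Of 3 tested genes listed with the C/EBP family 0 passed, among them Ddit3 (-0.36 ± 0.26, adjusted p = 0.306) and Cebpz (0.47 ± 0.29, adjusted p = 0.217). Cebpz was listed by its symbol and is not a member of the leucine zipper family. With edgeR 0 of the 3 were under an unadjusted p of 0.05 and with limma-voom 0 passed, while 1 was raised on log2(TPM + 1) and 1 without vehicle 1 and vehicle 4.

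Of 8 tested ETS genes of blood and vessel 6 fell and 0 rose (median -0.73), and 1 of 8 did so on log2(TPM + 1). Spib, the closest relative of Spi1, went from 2.21 to 0.180 CPM (-3.55 ± 0.78, adjusted p = 0.0112), from 141 vehicle and 13 colchicine counts in all. Ets2 fell by 0.89 ± 0.25 (adjusted p = 0.0263) and Elf4 by 0.78 ± 0.18 (adjusted p = 0.0124), and neither passed on log2(TPM + 1). Ets1, Fli1 and Etv6 also fell, though not past the threshold on log2(TPM + 1), and the 2 genes that did not pass were Elf1 and Erg.

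**Figure D5:**
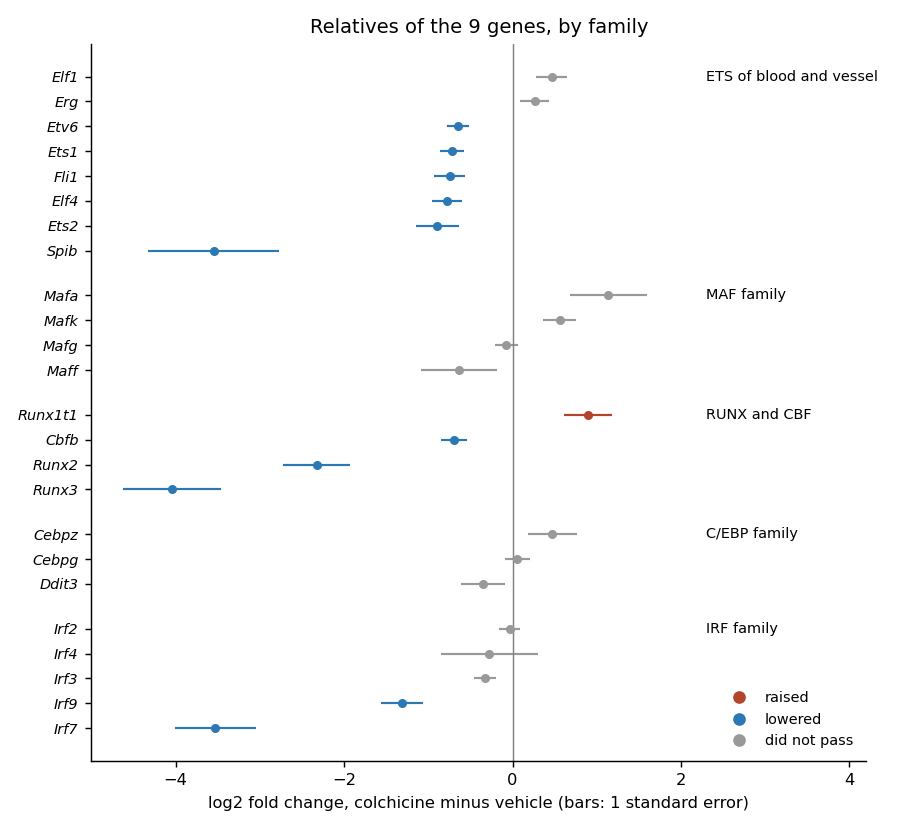
Log2 fold change, colchicine minus vehicle, with 1 standard error for tested relatives, partners and like-named genes of the 9 that are reported here, grouped by family list. Raised genes are in red, lowered genes in blue and genes that did not pass in grey. Runx3, Irf7 and Spib lie at -4.04, -3.53 and -3.55, and the raised Runx1t1, a corepressor and not a RUNX factor, lies at 0.89.

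Over the 8 libraries, the genes whose log2 CPM was most like that of each factor were found by Pearson's r among 11876 genes, as a description in which the group difference takes a large part. Those most like Spi1 were Fcer1g (r = 0.9987, n = 8), Tyrobp (0.9983) and Lcp1 (0.9976), all 3 of them among the leukocyte markers. Those most like Irf1 were the interferon-induced Igtp, Xaf1 and Helz2 (0.9823 to 0.9883). Csf2rb, Stxbp2 and Neurl3 came closest to Irf5 (0.9961 to 0.9983), Otulinl, Tnfaip8l2 and Pik3cd to Irf8 (0.9954 to 0.9979), and Pcdh1, Mapk11 and Sesn2 to Runx1 (0.9935 to 0.9977). For the C/EBP genes these were Ppif, Trub2 and Dusp5 for Cebpb (0.996 to 0.9984), Coasy, Aldh1l1 and Nemp2 for Cebpa (0.9824 to 0.9949) and Fkbp8, H1f2 and Glod4 for Cebpd (0.9698 to 0.9838). Maf had the lowest values, with Prorp, Usp3 and Ahr (0.9355 to 0.9471).

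Markers of other cells that could carry these factors were counted in the same way. With edgeR 17% of all genes tested were lowered and 17.4% raised. With limma-voom 1839 of 13431 genes were lowered and 2460 raised, and without scaling factors 1851 and 1915. Without vehicle 1 and vehicle 4 these were 2787 and 2783 of 13746 genes, and on log2(TPM + 1) 863 and 2347 of 13152. Dendritic cell markers fell in 5 of 7 tested cases (summed 177 to 312 CPM in vehicle and 38.1 to 85.0 CPM in colchicine libraries), B cell markers in 3 of 3 (4.37 to 34.3 against 0.230 to 1.94 CPM) and platelet markers in 5 of 6 (52.7 to 805 against 27.99 to 34.9 CPM). With limma-voom 5 dendritic cell, 2 B cell and 1 platelet marker fell. T and NK cell markers fell in 1 of 7 cases, in 2 of 7 with limma-voom and in 2 of 8 without vehicle 1 and vehicle 4, with 8.11 to 22.1 against 1.48 to 17.0 CPM. Erythroid markers fell in 5 of 6 cases, but in 0 with limma-voom and in 0 without vehicle 1 and vehicle 4. Among wall cells, smooth muscle markers rose in 4 of 10 cases and fell in 0, and endothelial markers rose in 3 and fell in 2 of 8. The number of smooth muscle markers that rose was 7 without vehicle 1 and vehicle 4, 8 on log2(TPM + 1), 6 with limma-voom and 2 without scaling factors, with 0 lowered in each. The number of lowered endothelial markers was 1 on log2(TPM + 1). Further, 0 of 8 fibroblast and 0 of 6 brown adipocyte markers passed with edgeR or with limma-voom. At an unadjusted p under 0.05 with edgeR there were 0 fibroblast markers and 1 brown adipocyte marker, and without vehicle 1 and vehicle 4 the number of lowered fibroblast markers was 3. The part of each of these in the levels of the 9 genes was not tested.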

How the data were processed

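RNA of mouse aorta was sequenced in 4 vehicle and 4 colchicine libraries, grouped by their titles. The authors deposited 1 table with estimated counts and TPM for each gene and library. Per the submitters' processing notes the build is mm10. Which aligner and counter made the table, and whether strand was used, is not given in the sources used here. The header of 1 TPM column (vehicle 3) names no unit. Between 8.07% and 8.94% of the deposited count values of a library were not whole, and counts were rounded. Genes without a symbol (30) held 5.89e-05% of counts.

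Differences were fitted over 13431 genes with edgeR 4.0.16 (R 4.3.3; TMM scaling, filterByExpr, quasi-likelihood test, Benjamini-Hochberg adjustment), which was also tested on simulated data. Standard errors are the log2 fold change divided by the root of F. CPM uses TMM-scaled totals, and log2 CPM a prior count of 2. A count of 3, taken as the limit of detection, is 0.158 to 0.22 CPM and covers counting error only. Alternatives used limma 3.58.1 (voom, or log2(TPM + 1) with a mean TPM of at least 1) and DESeq2 1.42.0, other scaling and filters, and left-out libraries. Positions are from GENCODE M21. Tables and plots used pandas 2.3.3, numpy 2.4.6 and matplotlib 3.10.9.

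The 9 genes and all lists were chosen with earlier results of these data known. Besides the 9 genes, those named are the 3 of each family or target list with the largest change past the threshold (where none passed, the 2 of smallest p), other genes of short lists on which a result turns, and for each of the 9 the 3 genes with the highest Pearson correlation over libraries (mean log2 CPM of at least 1). A gene outside this rule is named as chosen after its values were seen. Some genes of the lists are not reported here by name.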

Additional observations from a re-analysis of the deposited data

How the results depend on the processing

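Over the 9 genes and 21 alternative settings, 174 of the alternative values kept the direction and the side of the threshold, 12 kept the direction but no longer passed, and 3 changed sign. Spi1, Irf5, Irf8, Cebpb and Runx1 passed under every alternative run. Irf1 did not pass without TMM factors (-0.61, adjusted p = 0.0621), and Cebpa did not with the replicate number as a block (-1.755, adjusted p = 0.0614). The TPM fits with a pseudocount of 1, a pseudocount of 0.1 and no filter gave -0.25, -0.25 and -0.25 for Irf1, -1.29, -1.34 and -1.29 for Cebpa, -0.34, -0.35 and -0.34 for Cebpd, and the opposite sign, 0.15, 0.16 and 0.15, for Maf. The number of lowered genes was 863, 867 and 784 in these fits. The cause was not tested. With 1 library left out, the log2 change ranged from -3.55 to -2.81 for Spi1, -0.87 to -0.56 for Irf1, -3.04 to -2.53 for Irf5, -3.52 to -2.87 for Irf8, -2.17 to -1.605 for Cebpa, -3.24 to -2.31 for Cebpb, -0.88 to -0.73 for Cebpd, -3.73 to -3.33 for Runx1 and -0.40 to -0.21 for Maf, and only Irf1 without colchicine 1 lost its call. The number of raised genes then ranged from 898 to 2420 and that of lowered genes from 1309 to 2642. Libraries with the same number did not deviate together (correlations of -0.112, -0.159, 0.032 and -0.247 for the 4 pairs), and no library correlated best with its own number. The labels state no pairing, and with so few libraries these correlations cannot settle whether the numbers pair them. The replicate block gave 1121 raised and 1184 lowered genes and, of the calls on the 9 genes, changed that of Cebpa.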

Other observations

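Of 19 tested regulators of other steps in blood cell formation 8 fell and 2 rose, with a median of -0.29, which was 0.07 on log2(TPM + 1). Nfe2, a factor of platelet and red cell precursors, fell from 17.6 to 0.731 CPM (-4.57 ± 1.31, edgeR adjusted p = 0.0275), but stood at -0.18 without vehicle 1 and vehicle 4 (adjusted p = 0.759) and missed the threshold under limma-voom (adjusted p = 0.304). Tfec, a macrophage relative of Mitf, fell by 3.02 ± 0.72 (adjusted p = 0.0146), but did not pass without those libraries (adjusted p = 0.0749) or under limma-voom (adjusted p = 0.11). Batf3, needed for a class of dendritic cells, fell from 1.51 to 0.268 CPM (-2.46 ± 0.55, adjusted p = 0.0115). The other genes that fell were Batf, Bhlhe40, Ikzf1, Nfil3 and Relb, and those that rose were Mitf and Klf4, named here after their values were seen. Klf4 (adjusted p = 0.0467) did not pass with RLE factors (0.0518), without TMM factors (0.0918), without vehicle 1 and vehicle 4 (0.135), without haemoglobin and mitochondrial genes (0.052) or on log2(TPM + 1) (0.0682). On log2(TPM + 1) Ikzf1 did not pass either (adjusted p = 0.326). Gfi1, Gfi1b, Gata1 and Myb had too few counts to be tested.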
